A study of Mus musculus with 12 samples.

Results

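The potassium channel genes described here are the genes whose single platform symbol starts with Kcn, each read from its brightest probe set over all 12 arrays. There are 62 such genes of 12393 genes with 1 symbol on the array, covered by 90 probe sets. Of the 62 genes, 33 lay above a filter on dim probe sets (mean log2 signal above the 40th percentile of all probe sets, a geometric mean signal of at least 125), and 29 lay below it and were given no call. The symbol rule takes in pore-forming subunits as well as the accessory subunits that carry the same prefix.

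Spinal cord RNA was measured on 1 expression array per mouse in 3 groups of 4 mice aged 13 days. SMA ceftriaxone mice had the genotype SMN2+/+;SmnΔ7+/+;mSmn -/- and were given 200 mg/kg of the beta-lactam antibiotic ceftriaxone daily from day 5. SMA vehicle mice had the same genotype and received vehicle. Wildtype mice received vehicle and had the genotype SMN2+/+;SmnΔ7+/+;mSmn+/−, so these controls also carried both human transgenes and a single intact mouse Smn allele. All 3 groups came from 1 transgenic line (4299, on an FVB background) used as a mouse model of severe SMA (spinal muscular atrophy), a childhood disease in which motor neurons die for lack of the SMN protein. The labels speak of whole cords and of lumbar segments, state that the mice were perfused with fixative, and leave out sex.

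Potassium channels let potassium leave the cell and so set the resting potential, end action potentials and limit firing. Voltage-gated channels of the Kv1 group sit under the myelin next to the nodes of mature axons, Kv4 channels carry the A-type current of cell bodies and dendrites, and inward rectifiers and tandem-pore channels keep the resting potential of neurons and glia. Inward rectifiers of astrocytes and oligodendrocytes also take up the potassium that active axons release.

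The values are MAS5 signals, a linear intensity per probe set. Fold changes are differences of log2(signal + 16) from limma, which understate the change of dim genes, and every adjusted p-value is Benjamini-Hochberg adjusted over the 13575 probe sets above the filter, with a call under 0.05. The precision is limited by the 4 arrays per group. Signals of Smn1, the disrupted mouse gene, were 3.3 to 15.8 in SMA ceftriaxone cords and 3.6 to 5.7 in SMA vehicle cords, against 263.4 to 414.3 in wildtype cords. Wildtype array 2 stood apart: the summed signal of 8 thymus and T cell genes was 36298.3 in it and at most 512.3 in the other 11 arrays. Xist, which is transcribed in females, had signals above 1000 in 4 SMA ceftriaxone, 2 SMA vehicle and 1 wildtype arrays, so this measure moved with the groups. The ratio of 3 prime to 5 prime Gapdh control signal, a measure of RNA integrity, was 0.72 to 0.76 in SMA ceftriaxone, 0.73 to 0.76 in SMA vehicle and 0.75 to 0.76 in wildtype arrays.

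SMA vehicle cords were first compared with wildtype cords, which addresses the effect of the genotype. In SMA vehicle cords the Kv1 pore genes Kcna1 and Kcna2, all 3 Kv beta genes, the glial inward rectifier gene Kcnj10 and the tandem-pore genes Kcnk1 and Kcnk13 were lower. The A-type channel gene Kcnd2 with its partners Kcnip1 and Kcnip2, the large-conductance channel gene Kcnma1 with its partners Kcnmb2 and Kcnmb4, and the tandem-pore gene Kcnk2 were higher. The Kv1 pore genes Kcna5 and Kcna6 went against Kcna1 and Kcna2 and were also higher, as were Kcnk3 and Kcnu1. Kcne4 and Kcnj9 were also lower, while Kcnip3 and Kcnip4 did not pass. Of the 33 genes above the filter, 11 were higher, 10 were lower and 12 did not pass. The share called was 63.6%, against 47.2% of all 13575 probe sets, with 33.3% higher (24.9% of all probe sets) and 30.3% lower (22.3% of all probe sets). In this and the later comparisons each gene counts by its brightest probe set, while the shares of all probe sets count every probe set above the filter. A share over brightest probe sets alone was not computed, so the 2 are unlike. Differences above 2-fold were called higher for 3 genes (4.06% of all probe sets) and lower for 8 (4.18% of all probe sets). The median size of the difference, regardless of sign, was 0.76 on the log2 scale for the 33 genes and 0.30 for all probe sets. Arrays of the groups did not overlap for 19 of the 33 genes, against 42.5% of all probe sets. Without wildtype array 2 the counts were 11 higher and 13 lower, against 30.9% and 27.5% of all probe sets (58.4% called either way). In that fit Kcnk3 lost its call and Kcna3, Kcnc1, Kcnh2 and Kcnj3 gained one. Since 6 of the 33 genes had the mean of 1 group under the filter (Kcnab3, Kcne4, Kcnj9 and Kcnk13 in SMA vehicle, Kcnj8 in SMA ceftriaxone and Kcnu1 in wildtype cords), these counts describe the genes above the filter only.

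The effect of ceftriaxone was addressed by comparing both SMA groups with each other. After ceftriaxone, 10 of the 33 genes were higher, 6 were lower and 17 did not pass. The share called was 48.5%, against 35.9% of all probe sets, with 30.3% higher (18.3% of all probe sets) and 18.2% lower (17.7% of all probe sets). Differences above 2-fold were called higher for 4 genes (2.80% of all probe sets) and lower for 0 (1.32% of all probe sets). The 10 higher genes were Kcna1, Kcna2, Kcnab1, Kcnab2, Kcnab3, Kcne4, Kcnj9, Kcnj10, Kcnk1 and Kcnk13. The 6 lower genes were Kcnd2, Kcnip1, Kcnip2, Kcnmb2, Kcnmb4 and Kcnu1. Each of these 16 genes was also called in SMA vehicle against wildtype cords, but the 2 comparisons share the SMA vehicle arrays, so high or low values in those arrays enter both. The median size was 0.39 on the log2 scale for the 33 genes and 0.24 for all probe sets. Arrays of the groups did not overlap for 18 of the 33 genes, against 45.3% of all probe sets. Without wildtype array 2, which enters this comparison only through the shared spread, 12 were higher and 7 lower, against 24.6% and 25.6% of all probe sets (50.2% called either way).

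SMA ceftriaxone cords were also set against wildtype cords. Kcnip1, Kcnk2 and Kcna5 were higher, Kcnab2 was lower, and 29 genes did not pass. The share called was 12.1%, against 4.21% of all probe sets, with 9.09% higher (3.29% of all probe sets) and 3.03% lower (0.928% of all probe sets). No gene was called above 2-fold in either direction, against 0.140% higher and 0.0442% lower over all probe sets. The median size was 0.35 on the log2 scale for the 33 genes and 0.14 for all probe sets. Arrays of the groups did not overlap for 9 of the 33 genes, against 11.6% of all probe sets. Without wildtype array 2, 7 genes were higher and 2 lower, against 6.29% and 4.27% of all probe sets (10.6% called either way). Without wildtype array 1, 6 were higher and 1 was lower, a fit for which the share of all probe sets was not computed. With Xist signal as a covariate only Kcnip1 kept its call, and all 4 SMA ceftriaxone arrays had high Xist signal.

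**Figure D1:**
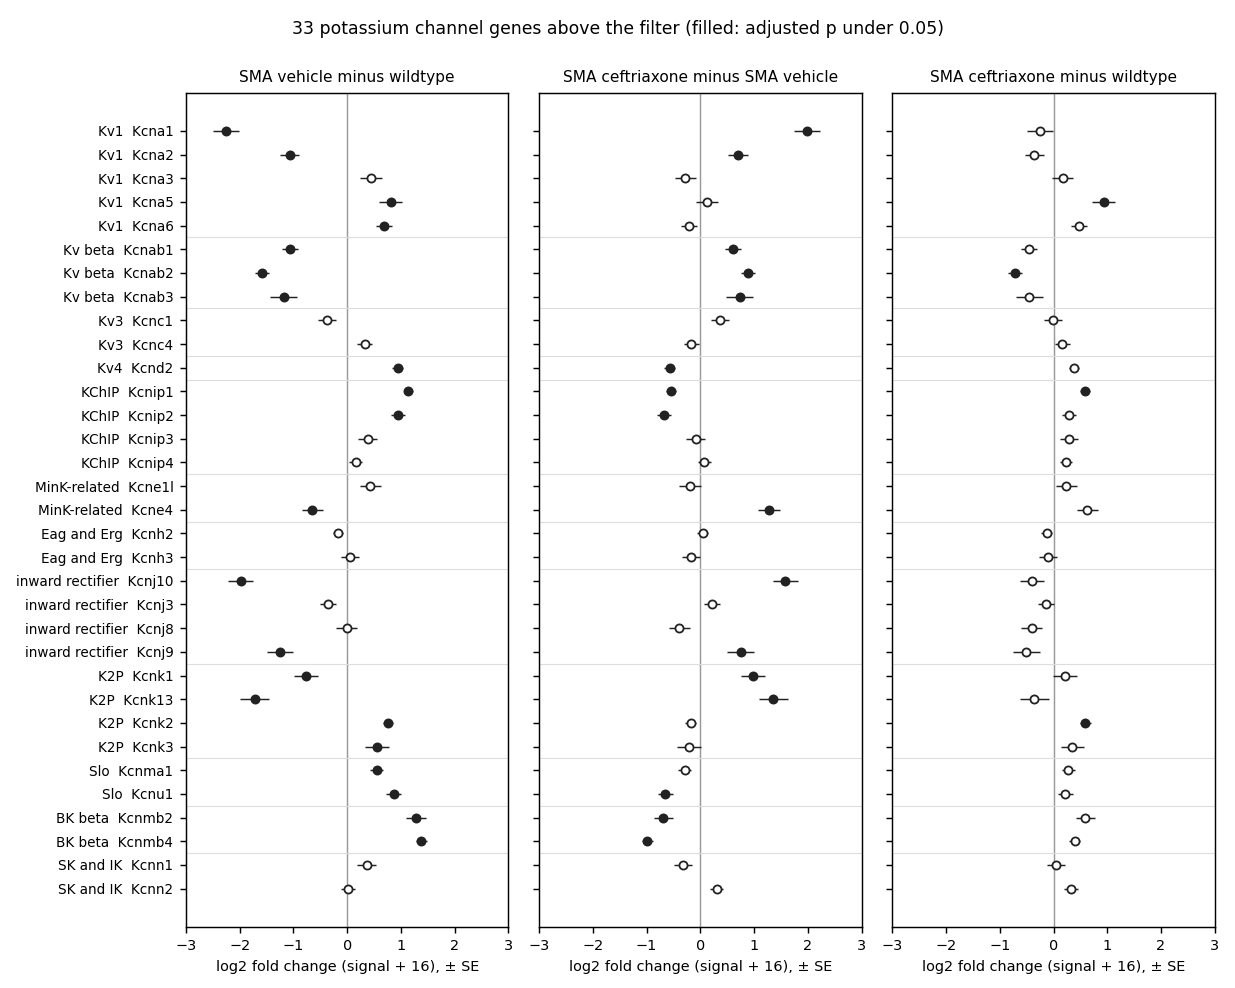
Differences of log2(signal + 16) with their standard errors for the 33 potassium channel genes above the filter, grouped by family from top to bottom, in the 3 comparisons; filled points have a limma adjusted p under 0.05. In the left panel 11 filled points lie right of 0 and 10 left of it, in the middle panel 10 and 6, and in the right panel 3 and 1.

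Of the 62 genes, 50 have a promoter in the RefSeq table (GRCm38.p6). Promoters are shown for a pair of genes that fell (Kcnj10 and Kcnk13) and a pair that rose (Kcnd2 and Kcnmb4) in SMA vehicle cords, as the 250 bases before the start site, 5′ to 3′ in the direction of the gene. They lie at chr1:172340960-172341209 (plus strand), chr12:99964249-99964498 (plus), chr6:21215096-21215345 (plus) and chr10:116473524-116473773 (minus). Capitals mark matches on either strand to 5 motifs, which are GGGCGG for the GC box, CCAAT for the box of that name, TATAAA for the TATA box, ACAAAG or else the sequence ACAATG for the SOX core, and CAGCTG for the E box.
Kcnj10: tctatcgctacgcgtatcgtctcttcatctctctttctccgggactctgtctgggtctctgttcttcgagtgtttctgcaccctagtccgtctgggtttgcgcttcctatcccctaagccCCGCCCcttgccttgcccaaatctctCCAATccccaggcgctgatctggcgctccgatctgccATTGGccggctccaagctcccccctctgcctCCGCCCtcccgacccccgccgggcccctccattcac
Kcnk13: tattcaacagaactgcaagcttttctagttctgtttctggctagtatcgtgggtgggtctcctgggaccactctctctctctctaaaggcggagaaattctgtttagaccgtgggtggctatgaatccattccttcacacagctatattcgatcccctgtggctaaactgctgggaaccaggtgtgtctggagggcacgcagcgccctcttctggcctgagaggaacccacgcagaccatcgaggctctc
Kcnd2: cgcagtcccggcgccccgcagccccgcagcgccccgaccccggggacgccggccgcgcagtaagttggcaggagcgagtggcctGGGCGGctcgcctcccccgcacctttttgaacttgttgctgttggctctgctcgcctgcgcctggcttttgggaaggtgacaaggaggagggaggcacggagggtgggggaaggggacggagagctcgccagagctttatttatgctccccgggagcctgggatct
Kcnmb4: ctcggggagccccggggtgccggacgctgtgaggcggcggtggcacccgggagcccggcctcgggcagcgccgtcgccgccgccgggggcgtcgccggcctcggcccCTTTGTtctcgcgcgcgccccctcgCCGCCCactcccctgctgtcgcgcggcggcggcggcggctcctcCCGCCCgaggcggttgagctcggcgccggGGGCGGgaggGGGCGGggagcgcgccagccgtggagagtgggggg
The Kcnj10 window holds 2 GC boxes and 2 CCAAT boxes, the Kcnk13 window none of the 5 motifs, the Kcnd2 window 1 GC box, and the Kcnmb4 window 4 GC boxes and 1 SOX core. The GC content was 62.0% for Kcnj10, 52.8% for Kcnk13, 68.8% for Kcnd2 and 83.6% for Kcnmb4, with a median of 52.4% over all 32851 promoters of the table. These genes are examples, and a link of GC content with the direction of change was not tested. Of those 32851 promoters, 32.7% hold a GC box, 33.8% a CCAAT box, 12.4% a TATA box, 25.2% a SOX core and 13.0% an E box. The shares among the 68 promoters of the potassium channel genes were 45.6%, 27.9%, 1.5%, 19.1% and 22.1% in the same order.

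Among the Kv1 pore genes, Kcna1 and Kcna2 encode the low-threshold subunits of myelinated axons. Kcna1 had signals of 344.1, 482.6, 324.9 and 309.8 in SMA vehicle cords, against 1944.5, 1354.3, 1618.4 and 2330.2 in wildtype cords. Every SMA vehicle array lay below every wildtype array. Kcna1 fell by 2.25 ± 0.24 (log2, SE; adjusted p = 8.83e-06), the largest fall among the 33 genes. Its signals in SMA ceftriaxone cords were 1121.9, 2144.3, 1052.5 and 1879.7, all above the SMA vehicle arrays, and it rose by 1.99 ± 0.24 (adjusted p = 7.93e-05). The ceftriaxone arrays of Kcna1 were split, with arrays 2 and 4 within the wildtype range and arrays 1 and 3 below it. Against wildtype the difference was -0.26 ± 0.24 (adjusted p = 0.583).

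Kcna2 was dimmer and moved the same way. Its signals were 180.6, 182.1, 176.4 and 166.3 in SMA vehicle cords, against 464, 275.6, 389.6 and 448.4 in wildtype cords, a fall by 1.07 ± 0.18 (adjusted p = 0.00035). The SMA vehicle arrays lay close together, and all lay below the wildtype arrays. After ceftriaxone the SMA cords had 207.3, 340.4, 292.4 and 374.6, also all above the SMA vehicle arrays, and the rise was 0.70 ± 0.18 (adjusted p = 0.00905).

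The other Kv1 pore genes did not follow Kcna1 and Kcna2. Kcna5, a Kv1 subunit known from muscle, vessels and glia, had signals of 245.3, 327, 282.4 and 249.5 in SMA vehicle cords, against 147, 110.3, 197.5 and 153.8 in wildtype cords, and rose by 0.81 ± 0.21 (adjusted p = 0.00662). In SMA ceftriaxone cords it had 213.8, 293.8, 270.7 and 469.6, so it stood above wildtype in all arrays of both SMA groups. The difference from SMA vehicle was 0.12 ± 0.21 (adjusted p = 0.691). The rise over wildtype was 0.93 ± 0.21 (adjusted p = 0.0287), and this call ended without wildtype array 4 (0.0628) or SMA ceftriaxone array 2 (0.0695), 3 (0.0681) or 4 (0.0593), and also with median centring (0.0583), with the 2 groups fitted alone (0.0948), with the Xist covariate (0.147) and with the Gapdh ratio covariate (0.102). Kcna6, another Kv1 pore gene, averaged 360 ± 46.2 in SMA vehicle cords and 221 ± 46.3 in wildtype cords (SD, n = 4 each), with no overlap of arrays, and rose by 0.68 ± 0.15 (adjusted p = 0.00248). Its mean in SMA ceftriaxone cords was 311 ± 47.5, and the difference from SMA vehicle did not pass (-0.21 ± 0.15, adjusted p = 0.315). Against wildtype it did not pass either (0.47, adjusted p = 0.101), but passed without wildtype array 1 (0.0457).

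Kcna3, best known as the Kv1 channel of T lymphocytes, had signals of 248.3, 261.9, 234.3 and 235.1 in SMA vehicle cords, against 167.4, 304.5, 133.7 and 136.9 in wildtype cords. The highest value is that of wildtype array 2, the array with thymus genes, and the other wildtype arrays lay below all SMA vehicle arrays. With all arrays the difference of 0.44 ± 0.20 did not pass (adjusted p = 0.0902), and without wildtype array 2 it was 0.69 (adjusted p = 0.000325). It also passed with quantile normalization (0.0371) and median centring (0.0347). The SMA ceftriaxone arrays had 175.2, 197.4, 239.6 and 188.5. The difference from wildtype was 0.17 (adjusted p = 0.701), or 0.41 without wildtype array 2 (adjusted p = 0.047).

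The Kv beta genes encode cytoplasmic subunits that bind Kv1 channels, help bring them to the surface and, for some forms, close them quickly. All 3 fell in SMA vehicle cords and all 3 rose after ceftriaxone. Kcnab2 had 783.9, 758.7, 717.4 and 644.6 in SMA vehicle cords, against 2450, 1706.8, 2279.9 and 2499.7 in wildtype cords, a fall by 1.59 ± 0.13 (adjusted p = 1.78e-06). In SMA ceftriaxone cords the signals were 1291.4, 1536.1, 1098 and 1500.4. These lay between the other groups with no overlap on either side, higher than SMA vehicle by 0.88 ± 0.13 (adjusted p = 0.000329) and lower than wildtype by a difference of -0.71 ± 0.13 (adjusted p = 0.0128). The call against wildtype ended with the 2 groups fitted alone (0.0624) and with Xist signal as a covariate (0.0918), and its second probe set did not pass there (-0.56, adjusted p = 0.131).

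Kcnab1 had 618.6, 647.2, 593.5 and 638.5 in SMA vehicle cords, against 1534.1, 918, 1361 and 1610.1 in wildtype cords. All SMA vehicle arrays lay below all wildtype arrays, and the fall was 1.07 ± 0.15 (adjusted p = 7.63e-05). Kcnab1 had 947.3, 973.3, 832 and 1111.8 in SMA ceftriaxone cords, all above SMA vehicle, with a rise of 0.61 ± 0.15 (adjusted p = 0.0064). The second probe set of Kcnab1 did not pass there (0.47, adjusted p = 0.0617). Against wildtype the difference was -0.46 (adjusted p = 0.104), and -0.63 without wildtype array 2 (adjusted p = 0.00235). Kcnab3 fell by 1.18 ± 0.25 (adjusted p = 0.00165), with means of 76.9 ± 18 in SMA vehicle and 196 ± 49.4 in wildtype cords (SD, n = 4 each). Its rise in SMA ceftriaxone cords, to 142 ± 51.5, was 0.73 ± 0.25 (adjusted p = 0.0361). That call ended when array 1 (0.0976) or 4 (0.0815) of the SMA vehicle group or array 2 (0.0756), 3 (0.0637) or 4 (0.114) of the SMA ceftriaxone group was left out, and with no filter, quantile normalization, median centring or Xist signal as a covariate (0.0588 to 0.0795).

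**Figure D2:**
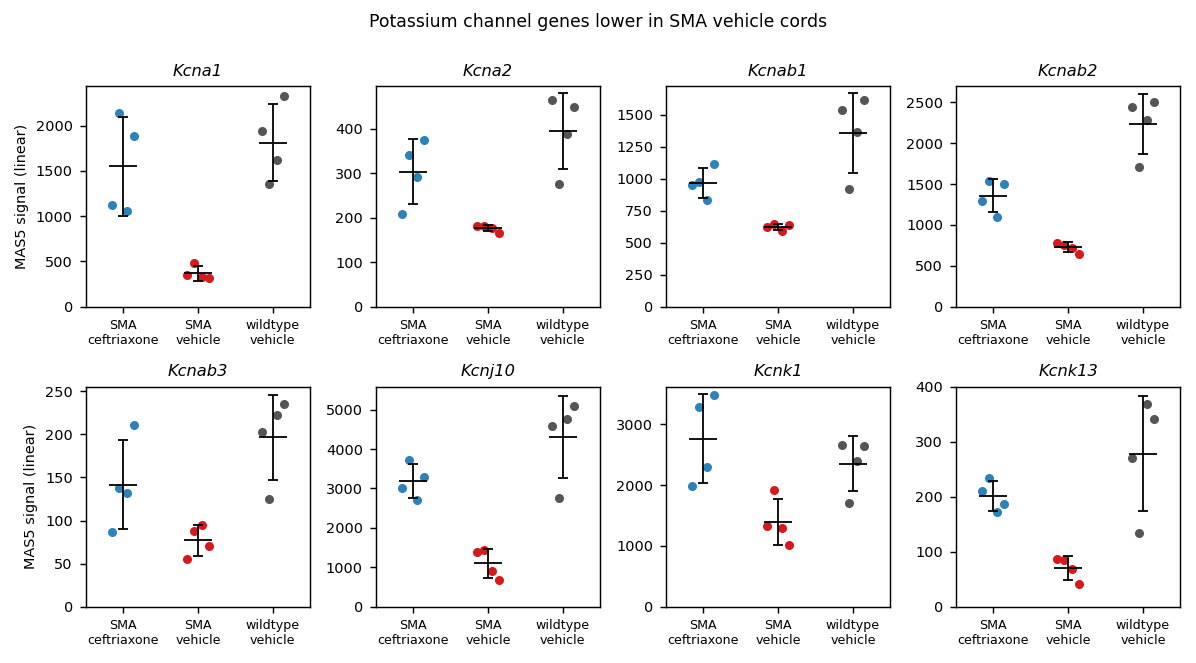
MAS5 signal of 8 genes that fell in SMA vehicle relative to wildtype cords; points are single arrays, lines are the mean and SD of 4 arrays per group, and each axis starts at 0. For Kcna1 the SMA vehicle arrays lie between 309.8 and 482.6 and the wildtype arrays between 1354.3 and 2330.2, and for Kcnj10 between 687.3 and 1427.2 and between 2767.7 and 5090.9.

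Among the inward rectifiers, Kcnj10 encodes the main potassium uptake channel of astrocytes and oligodendrocytes. It had 1374.8, 1427.2, 904.5 and 687.3 in SMA vehicle cords, against 4581.9, 2767.7, 4773.8 and 5090.9 in wildtype cords. The groups did not overlap, wildtype array 2 had the lowest wildtype value, and the fall was 1.98 ± 0.23 (log2, SE; adjusted p = 2.07e-05). Kcnj10 signals in SMA ceftriaxone cords were 3006.6, 3725.8, 2716.4 and 3299.3, all above SMA vehicle, a rise of 1.58 ± 0.23 (adjusted p = 0.000276). Against wildtype the difference was -0.40 ± 0.23 (adjusted p = 0.372).

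The G protein-gated inward rectifiers slow neuronal firing when transmitter receptors open them. Kcnj9, a subunit of such channels, fell by 1.25 ± 0.25 (adjusted p = 0.000971), with means of 116 ± 27.6 in SMA vehicle and 298 ± 62.9 in wildtype cords and no overlap of arrays. In SMA ceftriaxone cords it averaged 211 ± 76.8, a rise of 0.75 ± 0.25 (adjusted p = 0.0301), which ended without array 3 (0.0598) or 4 (0.0969) of the SMA vehicle group or array 2 (0.0956) or 4 (0.0967) of the SMA ceftriaxone group, and with quantile normalization (0.0595), median centring (0.0523) or no filter (0.05). Kcnj3, a subunit that Kcnj9 can pair with, averaged 139 ± 22.6 in SMA vehicle and 184 ± 35.4 in wildtype cords. Its difference of -0.36 did not pass (adjusted p = 0.059), but passed when wildtype array 2 (0.0144) or array 4 of SMA vehicle (0.0309) was left out. Kcnj8, the pore of an ATP-sensitive channel of pericytes and vascular muscle, had means of 145 ± 22.5 in SMA vehicle and 146 ± 17.2 in wildtype cords (adjusted p = 0.967). Kcnj8 in SMA ceftriaxone cords averaged 109 ± 34.2, and the difference from SMA vehicle was -0.39 (adjusted p = 0.127), or -0.53 without SMA ceftriaxone array 1 (adjusted p = 0.0457).

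The tandem-pore channels, which carry the background potassium current, were split. Kcnk13, a halothane-inhibited channel known from microglia, had 87.4, 85.2, 67.9 and 40.9 in SMA vehicle cords, against 271.2, 134.1, 368.3 and 341.2 in wildtype cords. The groups did not overlap, and the fall was 1.72 ± 0.27 (adjusted p = 0.000207). Kcnk13 in SMA ceftriaxone cords had 210.7, 234.4, 172.2 and 187.5, all above SMA vehicle, a rise of 1.36 ± 0.27 (adjusted p = 0.00199). Kcnk1, a weakly rectifying channel abundant in astrocytes, had 1330.9, 1925.4, 1291.6 and 1018.8 in SMA vehicle cords, against 2661.7, 1703, 2401.5 and 2641.1 in wildtype cords. Wildtype array 2 lay below SMA vehicle array 2, so the groups overlapped, and the fall was 0.77 ± 0.22 (adjusted p = 0.0106). With 1988.9, 3287.7, 2290.6 and 3480.9 in SMA ceftriaxone cords, Kcnk1 was above SMA vehicle in every array and rose by 0.98 ± 0.22 (adjusted p = 0.00367). The second probe set of Kcnk1 had -0.53 in SMA vehicle against wildtype cords and did not pass (adjusted p = 0.0804).

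Kcnk2, a channel opened by stretch, warmth and lipids, went the other way. It had 866.2, 789.2, 839.1 and 837.6 in SMA vehicle cords, against 605.9, 438.2, 470.4 and 437.2 in wildtype cords, and rose by 0.76 ± 0.10 (adjusted p = 6.67e-05) with no overlap. In SMA ceftriaxone cords Kcnk2 had 665.6, 781, 709.3 and 788.8. All of these lay below the SMA vehicle arrays by a small margin, and the difference of -0.18 ± 0.10 did not pass (adjusted p = 0.206). They also lay above all wildtype arrays, with a rise of 0.59 ± 0.10 (adjusted p = 0.0106). That call ended with the 2 groups fitted alone (0.0641) and with Xist signal as a covariate (0.078). Kcnk3, an acid-sensitive channel, averaged 334 ± 35.8 in SMA vehicle and 233 ± 91.1 in wildtype cords, and its rise of 0.56 ± 0.22 only just passed (adjusted p = 0.0475). Leaving out any single array other than wildtype array 1 or 4 ended this call (adjusted p 0.0538 to 0.138).

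**Figure D3:**
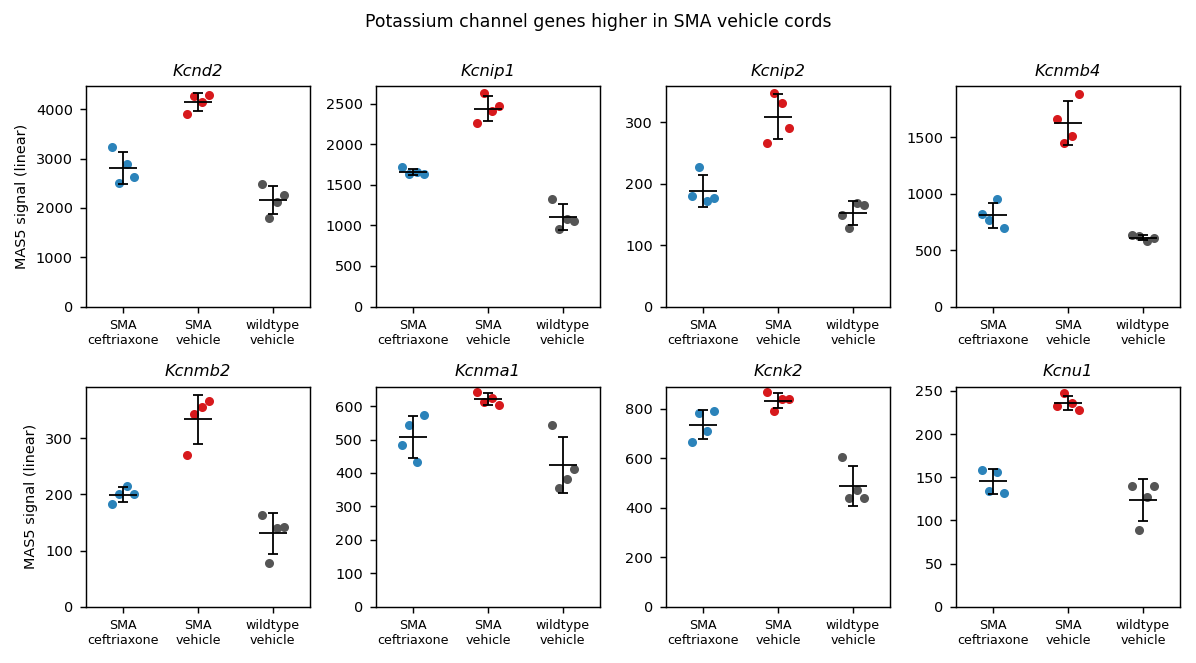
MAS5 signal of 8 genes that rose in SMA vehicle relative to wildtype cords; points are single arrays, lines are the mean and SD of 4 arrays per group, and each axis starts at 0. For Kcnmb4 the SMA vehicle arrays lie between 1446.6 and 1883.5, above the SMA ceftriaxone arrays (696.2 to 954.4) and the wildtype arrays (580.9 to 632).

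The Kv4 channel gene Kcnd2 and its calcium-binding KChIP partners make up the A-type channel. Kcnd2 had 3894.8, 4273.1, 4145.1 and 4290.3 in SMA vehicle cords, against 2474.8, 1795.9, 2112.1 and 2267.5 in wildtype cords. Every SMA vehicle array was above every wildtype array, and the rise was 0.94 ± 0.10 (log2, SE; adjusted p = 1.17e-05). With ceftriaxone the signals were 3239.8, 2494, 2892.5 and 2616.3, below all SMA vehicle arrays, and Kcnd2 fell by 0.57 ± 0.10 (adjusted p = 0.00105). They also lay above all wildtype arrays, but the difference of 0.38 ± 0.10 did not pass (adjusted p = 0.0573) and passed without wildtype array 1 (0.0313) or 2 (0.0476). The 2 other probe sets of Kcnd2 above the filter had 1.05 and 1.10 in SMA vehicle against wildtype cords, and -0.72 and -0.80 in SMA ceftriaxone against SMA vehicle cords, with the same calls.

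Kcnip1 had 2257.3, 2627.4, 2409.5 and 2466.1 in SMA vehicle cords, against 1325.4, 957.6, 1078.2 and 1048 in wildtype cords, a rise of 1.14 ± 0.09 (adjusted p = 1.44e-06). The SMA ceftriaxone arrays of Kcnip1 had 1714.8, 1634.3, 1659 and 1632.9, which lay between the other groups without overlap. They were lower than SMA vehicle by a difference of -0.55 ± 0.09 (adjusted p = 0.000589) and higher than wildtype by 0.59 ± 0.09 (adjusted p = 0.00462). In the mean of all 4 probe sets of Kcnip1, of which 2 lay below the filter, both of these calls ended (adjusted p = 0.0633 and 0.371). The second probe set above the filter did not pass against wildtype (0.34, adjusted p = 0.0969).

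Kcnip2 had 266.5, 346.8, 330.3 and 291 in SMA vehicle cords, against 148.6, 126.9, 168.4 and 165.6 in wildtype cords, and rose by 0.95 ± 0.13 (adjusted p = 6.89e-05) with no overlap. The values of Kcnip2 in SMA ceftriaxone cords were 179.1, 226.8, 171.3 and 176.3, below all SMA vehicle arrays, and it fell by 0.67 ± 0.13 (adjusted p = 0.00164). The other KChIP genes did not pass in SMA vehicle against wildtype cords. Kcnip3, which also acts as a repressor of transcription, had 0.38 (adjusted p = 0.0777) and passed without wildtype array 1 (0.00376) and by its second probe set (0.70, adjusted p = 0.004). Kcnip4 had 0.16 (adjusted p = 0.29). The Kv3 genes, which encode channels of fast-spiking neurons, did not pass either, with -0.37 for Kcnc1 (adjusted p = 0.0834) and 0.33 for Kcnc4 (adjusted p = 0.0609). Kcnc1 passed without wildtype array 2 (0.00135), and Kcnc4 passed without wildtype array 4 (0.0411) or SMA ceftriaxone array 1 (0.0439) and by its second probe set (0.54, adjusted p = 0.0164).

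Among channels opened by calcium, the large-conductance pore gene Kcnma1 and 2 of the 3 beta subunit genes measured were higher in SMA vehicle cords. The third measured, Kcnmb1, lay below the filter. Kcnmb4, the beta subunit of neurons, had 1658.7, 1446.6, 1507.1 and 1883.5 in SMA vehicle cords, against 632, 622.1, 580.9 and 606.9 in wildtype cords. It rose by 1.38 ± 0.10 (adjusted p = 1.28e-06), the largest rise among the 33 genes, with no overlap. With ceftriaxone Kcnmb4 had 818.1, 766.7, 954.4 and 696.2, below all SMA vehicle arrays, and it fell by 0.99 ± 0.10 (adjusted p = 5.18e-05). They lay above all wildtype arrays, but the difference of 0.39 ± 0.10 did not pass (adjusted p = 0.0556) and passed without wildtype array 2 (0.037) or SMA ceftriaxone array 4 (0.0473).

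Kcnmb2, the beta subunit that closes these channels quickly, had 270.8, 343.1, 355.8 and 366.4 in SMA vehicle cords, against 162.6, 78.4, 140 and 142.3 in wildtype cords, a rise of 1.28 ± 0.18 (adjusted p = 7.15e-05). In SMA ceftriaxone cords it had 182.5, 201, 215.2 and 200.3. These values lay between the other groups without overlap, lower than SMA vehicle by a difference of -0.69 ± 0.18 (adjusted p = 0.00859). Against wildtype the 0.59 ± 0.18 did not pass (adjusted p = 0.0807), but passed without wildtype array 1 (0.0479) or 2 (0.0498) and by the second probe set (0.58, adjusted p = 0.047). The pore gene Kcnma1 averaged 621 ± 17.1 in SMA vehicle and 423 ± 83.6 in wildtype cords, without overlap, and rose by 0.55 ± 0.12 (adjusted p = 0.00256). It averaged 508 ± 62.5 in SMA ceftriaxone cords, a difference of -0.29 from SMA vehicle (adjusted p = 0.0891) that passed without wildtype array 1 (0.0353) or 2 (0.0459).

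Kcnu1 encodes a relative of Kcnma1 known as the channel of sperm. Its probe set had 232.8, 247, 236.5 and 227.8 in SMA vehicle cords, against 139.8, 88.6, 126.9 and 140.1 in wildtype cords, and rose by 0.87 ± 0.14 (adjusted p = 0.000218). Kcnu1 in SMA ceftriaxone cords had 158.9, 134.3, 156.3 and 131.6, below all SMA vehicle arrays, and fell by 0.65 ± 0.14 (adjusted p = 0.00299). These signals are close to the filter, and without detection calls they are not shown to lie above background. The small-conductance genes, which shape the pause after a spike, did not pass. Kcnn1 had 0.36 in SMA vehicle against wildtype cords (adjusted p = 0.103), and passed without wildtype array 1 (0.0256) and by its second probe set (0.44, adjusted p = 0.0438). Kcnn2 had 0.02 (adjusted p = 0.913), and its 0.30 in SMA ceftriaxone against SMA vehicle cords (adjusted p = 0.0952) passed without wildtype array 2 (0.0276).

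The remaining genes above the filter belong to the single-pass accessory subunits and the Eag and Erg channels. Kcne4, an accessory subunit that damps several Kv channels, had 118.5, 111.8, 90 and 113 in SMA vehicle cords, against 221.8, 111.2, 191 and 210.9 in wildtype cords. Wildtype array 2 lay within the SMA vehicle range, and the fall of 0.65 ± 0.20 (adjusted p = 0.0182) ended without wildtype array 1 (0.0558) or 4 (0.0536) or SMA vehicle array 3 (0.0558), and with quantile normalization (0.0633). The 4 SMA ceftriaxone arrays had 228.6, 389.3, 272.6 and 272. All of these lay above every SMA vehicle and every wildtype array, with a rise of 1.28 ± 0.20 over SMA vehicle (adjusted p = 0.00044) and a difference of 0.63 ± 0.20 from wildtype that did not pass (adjusted p = 0.0999). Kcne1l, another single-pass subunit gene, had 0.43 in SMA vehicle against wildtype cords (adjusted p = 0.0962). Kcnh2, the Erg channel that repolarises heart and neurons, had -0.17 (adjusted p = 0.196) and passed without wildtype array 2 (0.0181), and Kcnh3 had 0.05 (adjusted p = 0.814).

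**Figure D4:**
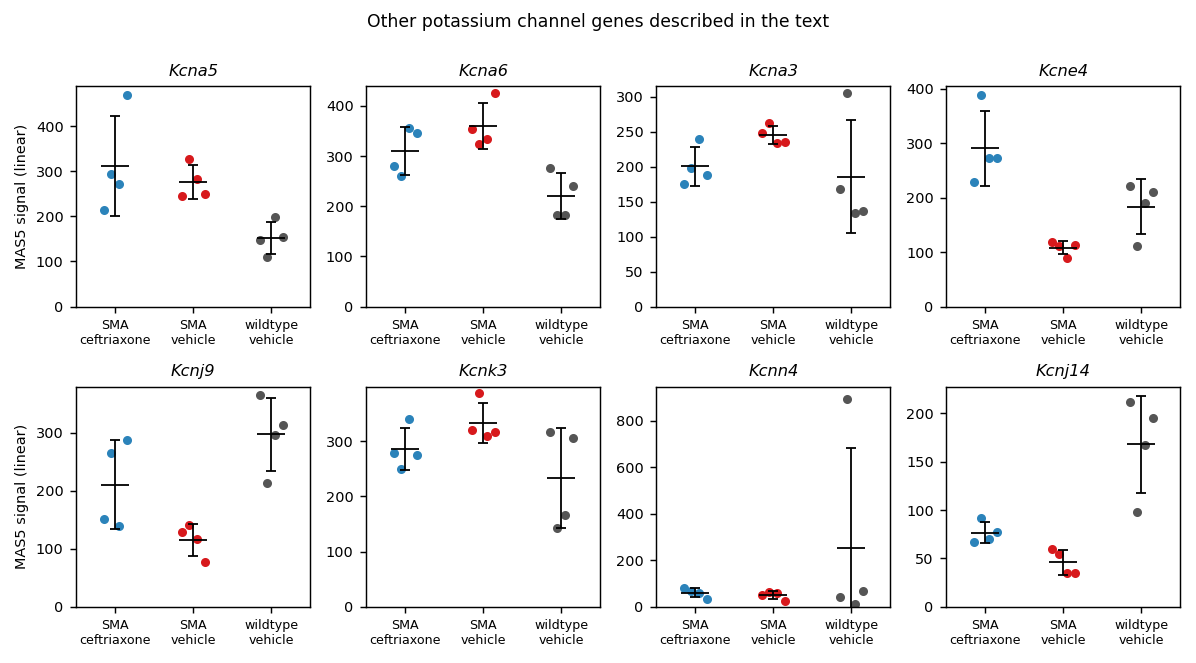
MAS5 signal of 8 further genes; points are single arrays, lines are the mean and SD of 4 arrays per group (the lower SD bar of Kcnn4 in wildtype cords runs below 0), and each axis starts at 0. Kcne4 is above wildtype in all 4 SMA ceftriaxone arrays (228.6 to 389.3), and Kcnn4 has 892.7 in wildtype array 2 and at most 80.9 in all other arrays.

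By family, the filter kept 5 of 7 Kv1 pore genes, 2 of 2 Kv3, 1 of 3 Kv4, 3 of 3 Kv beta, 4 of 4 KChIP, 2 of 5 single-pass subunit, 2 of 4 Eag and Erg, 4 of 13 inward rectifier, 4 of 8 tandem-pore, 2 of 2 large-conductance pore, 2 of 3 large-conductance beta and 2 of 4 smaller-conductance genes, and none of the 2 Kcnq and 2 silent Kcns genes. All 11 genes with several probe sets above the filter had the same sign in each comparison. Calls agreed for 7 in SMA vehicle against wildtype, 10 in SMA ceftriaxone against SMA vehicle and 8 in SMA ceftriaxone against wildtype cords. Below the filter, further probe sets of called genes were split. In the first 2 comparisons those of Kcnj9 and Kcnk3 kept the sign of the brightest probe set. However, 1 of those of Kcnj9 had only -0.01 and 0.07, at group means of 4.77 to 5.73, so its sign says little. Of the dim Kcnip1 probe sets, 1 kept it (0.69 and -0.57) and 1 did not (-0.11 and 0.11). That of Kcnip2 did not (-0.12 and 0.10), and that of Kcnab3 kept it only in the first (-0.44 and -0.08). The 29 genes below the filter were Kcna4, Kcna7, Kcnd1, Kcnd3, Kcne1, Kcne2, Kcne3, Kcnh1, Kcnh7, Kcnj1, Kcnj2, Kcnj4, Kcnj5, Kcnj6, Kcnj11, Kcnj12, Kcnj14, Kcnj15, Kcnk4, Kcnk5, Kcnk7, Kcnk10, Kcnmb1, Kcnn3, Kcnn4, Kcnq1, Kcnq5, Kcns1 and Kcns2. In 27 of them every array had a signal under 200, and in 14 the mean of every group was under 50. With no filter, where calls are adjusted over 22626 probe sets, 4 of them were higher (16.5% of all probe sets) and 3 lower (14.8% of all probe sets) in SMA vehicle against wildtype cords. These shares, and those given below for ceftriaxone, are over a set in which 13575 probe sets lay above the filter. Shares among the probe sets below it were not computed, so the 2 kinds of set are unlike. Kcnk10, a relative of Kcnk2, had 108.9, 129.5, 183.1 and 163.9 in SMA vehicle cords, against 41.5, 28.4, 48.9 and 43.1 in wildtype cords (1.51, adjusted p = 0.000114 with no filter). Kcns2, a silent subunit that joins other Kv channels, had 139.5, 128.7, 156.5 and 144.3 in SMA vehicle cords, against 40, 39.6, 51.5 and 53.5 in wildtype cords (1.35, adjusted p = 0.000428 with no filter). For both genes every SMA vehicle array was above every wildtype array. In SMA ceftriaxone against SMA vehicle cords 2 genes from below the filter were lower (10.8% of all probe sets) and 0 higher (11.5% of all probe sets, limma with no filter), at -1.08 for Kcnk10 (adjusted p = 0.00235) and -1.15 for Kcns2 (adjusted p = 0.00251). The other genes that passed with no filter in SMA vehicle against wildtype cords were Kcns1 (1.02, adjusted p = 0.0126), Kcnd1 (0.50, adjusted p = 0.0361), Kcnj14 (-1.54, adjusted p = 0.000229), Kcnk5 (-1.03, adjusted p = 0.0241) and Kcnj15 (-0.88, adjusted p = 0.00137). Kcnn4, the intermediate-conductance channel of lymphocytes, had 51.9, 64.5, 59.3 and 23.3 in SMA vehicle cords, against 41, 892.7, 10.4 and 68.3 in wildtype cords. Its high value is that of wildtype array 2, the array with thymus genes.

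Genes whose proteins bind, place or regulate potassium channels were listed apart, and 21 of the 26 measured lay above the filter. In SMA vehicle against wildtype cords 6 were higher, 2 were lower and 13 did not pass, with a median log2 difference of 0.22. The 8 of 21 called (6 higher and 2 lower) stand beside 47.2% of all probe sets, 24.9% higher and 22.3% lower. Whether the list differs from all probe sets was not tested. Cntnap2, which holds Kv1 channels next to the node, rose by 1.02 (adjusted p = 2.42e-05), opposite in sign to Kcna1 and Kcna2. Dpp6, an accessory subunit of Kv4 channels, rose by 0.49 (adjusted p = 0.00475), as did the scaffold genes Dlg3 (0.93, adjusted p = 4.62e-06) and Dlg4 (0.53, adjusted p = 0.000304). Fgf14 and Cttn also rose, by 0.38 and 0.28 (adjusted p = 0.00786 and 0.016). Dlg1, another scaffold gene of the same family, fell by 0.95 (adjusted p = 6.28e-06), and Sptbn4, a spectrin of nodes and axon initial segments, fell by 0.50 (adjusted p = 0.0024). In SMA ceftriaxone against SMA vehicle cords 2 were higher (Dlg1 by 0.78 and Sptbn4 by 0.43) and 4 were lower (Cntnap2 at -0.68, Dlg3 at -0.61, Dlg4 at -0.46 and Fgf14 at -0.38), with a median of -0.11. These 6 of 21 stand beside the 35.9% of all probe sets called in that comparison (18.3% higher and 17.7% lower), again without a test. In SMA ceftriaxone against wildtype cords 0 of the 21 passed limma's adjusted threshold, where only 4.21% of all probe sets did.

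Markers of several cell types moved with the groups. Their counts stand against 24.9% higher and 22.3% lower over all probe sets in SMA vehicle against wildtype cords, and 18.3% higher and 17.7% lower in SMA ceftriaxone against SMA vehicle cords. The summed signal of 9 mature oligodendrocyte genes was 100390 to 110580 in SMA ceftriaxone, 25800 to 53933 in SMA vehicle and 86315 to 138595 in wildtype cords, and all 9 were lower in SMA vehicle cords than in wildtype (median -2.23) and higher after ceftriaxone than in SMA vehicle cords (median 2.09). Of 7 astrocyte genes, 4 were lower and 2 higher in SMA vehicle cords than in wildtype, 5 were higher in SMA ceftriaxone than in SMA vehicle cords, and 2 were higher in SMA ceftriaxone cords than in wildtype (3.29% of all probe sets), with summed signals of 39608 to 43187 in SMA ceftriaxone, 22919 to 28850 in SMA vehicle and 28571 to 45624 in wildtype cords. Microglia genes, 7 in number, fell in 5 cases in SMA vehicle relative to wildtype cords, with summed signals of 6732 to 8185 in SMA ceftriaxone, 4610 to 5536 in SMA vehicle and 5997 to 8651 in wildtype cords.

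Neuronal markers moved less evenly. Of 8 neuron genes, 4 were higher and 2 lower in SMA vehicle cords than in wildtype (24.9% and 22.3% of all probe sets), and the summed signals overlapped between the groups at 55600 to 62542 in SMA ceftriaxone, 58521 to 64852 in SMA vehicle and 46651 to 69166 in wildtype cords. This list shares Tubb3 and Stmn2 with the list of immature neurons, and Snap25, Syt1 and Rbfox3 with that of mature neurons, so the counts are not separate. Of 7 genes of immature neurons, 6 were higher in SMA vehicle cords than in wildtype and all 7 were lower after ceftriaxone than in SMA vehicle cords. In SMA ceftriaxone against wildtype cords 2 of the 7 were higher (3.29% of all probe sets). Their summed signals were 24759 to 31005 in SMA ceftriaxone, 42789 to 52590 in SMA vehicle and 22626 to 24485 in wildtype cords, with no overlap between any groups. Skeletal muscle genes, 6 measured and 3 above the filter, summed to 290 to 820 in SMA ceftriaxone, 2276 to 5571 in SMA vehicle and 678 to 1878 in wildtype cords. In none of the measured lists did a marker lie under a signal of 16 in every array. The part of these cell types in the channel differences was not tested, and in cord tissue fewer cells of a type and less RNA per cell cannot be told apart.

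**Figure D5:**
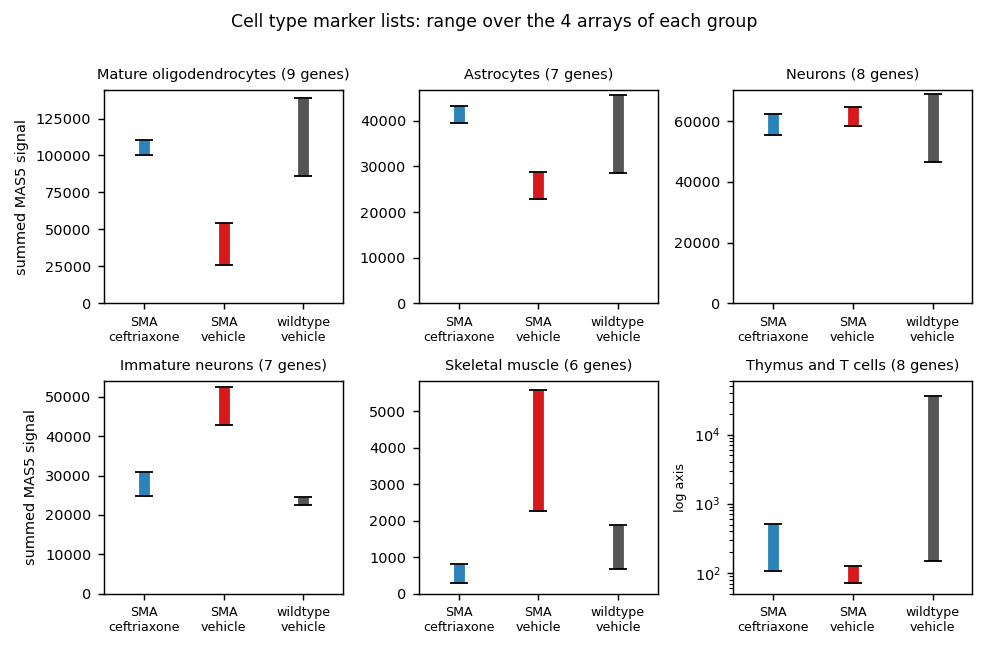
Range, over the 4 arrays of each group, of the summed MAS5 signal of 6 marker lists; axes start at 0 except the log axis of the thymus and T cell list. Mature oligodendrocyte genes sum to 25800 to 53933 in SMA vehicle cords, below SMA ceftriaxone and wildtype cords, while immature neuron genes sum to 42789 to 52590 there, above both.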

How the data were processed

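Spinal cord RNA of 12 mice was hybridised to 1 array each. The authors deposited MAS5 signal intensity values, linear, per the submitters' processing notes, with no MAS5 version given in the sources used here. They appear scaled, with a trimmed mean (2% off each end) of 700.2 to 700.3 on every array. Detection calls were not used. The platform annotation of 2016 gives 1 symbol for 20393 of 22690 probe sets, several for 691 and none for 1606. After removal of 64 controls, 16 was added to the signals before taking log2. The 3 group means were estimated on all 12 arrays by limma 3.58.1 under R 4.3.3 (9 residual degrees of freedom, intensity trend, two-sided), tested on simulated data.

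The members and lists were chosen with earlier results of these data known. Values in every array were given for the 12 genes of smallest p in each comparison with SMA vehicle, those called in SMA ceftriaxone against wildtype cords, and Kcna1, Kcna2, Kcna3 and Kcnj10. Kcnk10, Kcns2 and Kcnn4 were added after their values were seen. Replicate numbers did not pair the samples (deviations from the group means of same-numbered arrays correlated at -0.143 to 0.133).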

Additional observations from a re-analysis of the deposited data

Results flagged for a closer look

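In 5 of 99 groups of 4 arrays (33 genes in 3 groups) 1 array stood far from the other 3 on the log2 scale by Dixon's test, and chance gives about 1 in 20. In SMA vehicle cords Kcnc4 had a signal of 1051.6 in array 1, against 863.3 to 884.4 in the others, and Kcnh3 had 212.2 in array 1, against 142 to 150.1. Kcnk3 had 387.1 in SMA vehicle array 2, against 310.3 to 321.4 in the others of that group. Kcnip2 had 226.8 in SMA ceftriaxone array 2, against 171.3 to 179.1. Kcne1l had 320.4 in wildtype array 2, the array with thymus genes, against 590.3 to 664.3 in the other wildtype arrays.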

How the results depend on the processing

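The settings varied were the offset (1 or 64), scaling (quantile or median), the dim filter (none or the 60th percentile), the variance trend, quality weights per array, the groups in the model, the replicate block, a covariate (Xist signal or Gapdh ratio), averaging a gene's probe sets, and single arrays left out. Xist signal together with leaving out wildtype array 2 was added after the data were seen. Over the 33 genes and 3 comparisons no called difference changed sign. Of the values, 2393 kept their outcome, called or not called, 55 lost a call and 63 gained one. The outcome was the same in every setting in which the gene was tested for 24 genes in SMA vehicle against wildtype cords. The same held for 26 genes in SMA ceftriaxone against SMA vehicle and 19 in SMA ceftriaxone against wildtype cords. These counts include genes with no call. None of the 4 genes called in SMA ceftriaxone against wildtype cords kept its call throughout, so those 19 had no call.

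With the filter at the 60th percentile, which left 16 genes, SMA vehicle against wildtype gave 5 higher and 5 lower, and SMA ceftriaxone against SMA vehicle 5 higher and 3 lower. In SMA ceftriaxone against wildtype (3 higher, 1 lower) array quality weights gave 8 higher and 4 lower, the 2 groups alone 1 higher and 0 lower, Xist signal as a covariate 1 higher and 0 lower, averaged probe sets 5 higher, and the covariate without wildtype array 2 gave 2 lower. Without 1 array the counts ran from 10 to 13 higher and 9 to 13 lower (SMA vehicle against wildtype), 8 to 12 higher and 6 to 7 lower (SMA ceftriaxone against SMA vehicle) and 2 to 7 higher and 1 to 2 lower (SMA ceftriaxone against wildtype). With the replicate block they were 11 and 10, 9 and 6, and 2 and 1, and 1 of 12 arrays correlated best with its own number. The block ended the calls of Kcna5 (SMA ceftriaxone against wildtype, adjusted p = 0.0544), Kcnj9 (SMA ceftriaxone against SMA vehicle, 0.0593) and Kcnk3 (SMA vehicle against wildtype, 0.0659), and Kcnc4 passed (SMA vehicle against wildtype, 0.034). Apart from leaving out wildtype array 2 and using no filter, shares of all probe sets were not computed for these settings. Whether all probe sets moved alike there was not tested. Genes near the filter are limited by signal over background, which is unknown here.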

Other observations

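Motor neuron genes were measured apart from the channel genes. Of 6 measured, 3 lay above the filter, and their summed signal over all 6 was 1658 to 1755 in SMA ceftriaxone, 2026 to 3116 in SMA vehicle and 1582 to 2852 in wildtype cords. In SMA vehicle against wildtype cords 0 of the 3 passed limma's adjusted threshold, against 47.2% of all probe sets. Vascular genes, 8 measured, summed to 4802 to 6787 in SMA ceftriaxone, 3440 to 4552 in SMA vehicle and 5543 to 6967 in wildtype cords, with 4 lower in SMA vehicle cords than in wildtype (22.3% of all probe sets). The pericyte channel gene Kcnj8 and its partner Abcc9 did not pass there (adjusted p = 0.967 and 0.104).

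The oligodendrocyte precursor list was Pdgfra, Cspg4, Gpr17, Sox10, Olig1 and Olig2. Of its 5 measured genes, 3 were lower and 1 higher in SMA vehicle cords than in wildtype. How far these genes are limited to precursors was not tested. Of 5 mature neuron genes above the filter 2 were higher and 2 lower. For both lists the shares of all probe sets were 24.9% higher and 22.3% lower. The single ependymal gene measured did not pass in any comparison, and no Schwann cell gene of the list was analysed here.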
